A study of Mus musculus with 11 samples.

Results

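The insulin-like growth factor (IGF) genes described here are Igf1, the receptor genes Igf1r and Igf2r, and the binding protein genes Igfbp2, Igfbp3, Igfbp4, Igfbp5 and Igfbp7. They were chosen by name, with no measured value in the rule, and are 8 of the 18194 genes named on the arrays. All probe sets with 1 of these names as their only gene symbol were taken, which gave 25 of 34958 such probe sets. The members and the gene lists used below were chosen with earlier results of these data known. Their counts beside the shares of all genes are therefore a description and no test of the lists. The samples are pieces of the mandibular arch (the paired swelling that forms the lower jaw and much of the tongue) of ICR mouse embryos, an outbred stock, with no genotype or treatment named. The medial piece was cut at the distal end of the arch and the lateral piece was the rest. Medial tissue was measured on 1 array at embryonic day (E) 9.7, 3 arrays at E10.5, 2 arrays at E11.5 and 1 array at E14.5, and lateral tissue on 1 array at E9.7 and 3 at E10.5. At E14.5 the labels name the front of the tongue, so stage and dissection cannot be told apart there. The labels give RNA pools of 40 embryos and do not say that replicates are separate pools. P-values therefore measure only how arrays of a group scatter, possibly for technical reasons, and the number of arrays limits the precision.

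IGF1 and IGF2 are secreted growth factors that act through the receptor tyrosine kinase encoded by Igf1r and promote proliferation, survival and, in skeletal muscle precursors, differentiation. The receptor encoded by Igf2r carries no kinase: it takes IGF2 into the cell for breakdown in lysosomes. The binding proteins hold IGFs outside the cell, prolong their life or keep them from the receptor, and are themselves cut by proteases such as pappalysins. Tongue muscle forms from precursors that migrate into the medial arch.

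Of the 11 arrays, 9 had a median deposited log2 signal of 5.20 to 5.73, while the first replicates of medial E10.5 and of medial E11.5 were at 2.37 and 2.47. All levels below are log2 signals after quantile normalization over the 11 arrays, and a difference of 1 is 2-fold. Array groups read from 45 control probe sets put these low arrays in a group of their own and the E14.5 array in another, and values within groups are given beside the results. Each such value sets 1 medial array against 1 or 2 lateral arrays at E10.5, or 1 E11.5 array against 1 medial E10.5 array. They come from the same arrays as the main differences and are no replication of them. The 3' minus 5' difference of the beta-actin control probe sets, a measure of RNA integrity or amplification, was 0.26 to 0.49 on 10 arrays and 1.22 on the E14.5 array. For Gapdh it was -0.15 to -0.03 on those 10 arrays and 0.15 on the E14.5 array.

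At E10.5, medial tissue had higher Igf1, Igf2r and Igfbp5 and lower Igfbp3 than lateral tissue, and Igf1r, Igfbp2, Igfbp4 and Igfbp7 did not pass the test. That is 4 of 8 members by limma at an adjusted p under 0.05, with each gene read by its brightest probe set, where 4.63% of 11968 tested genes passed (554, 2.82% higher and 1.8% lower). The median difference of the 8 members was 0.22, and that of all tested genes was -0.01. All 8 members passed the filter on dim genes, which asked for 2 of 8 arrays at or over 4.86, the 50th percentile of all values. With each probe set tested on its own, 6 of the 24 that passed the filter were higher and 2 lower, where 3.51% of 21330 probe sets passed. The p-values given below for brightest probe sets are those of the fit over genes, and those of other probe sets come from the fit over probe sets. Of the 6 higher ones, 1423584_at of Igfbp7 reached the filter level at E10.5 in medial tissue alone, so it had to differ to be tested, and it is described below by its values.

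**Figure D1:**
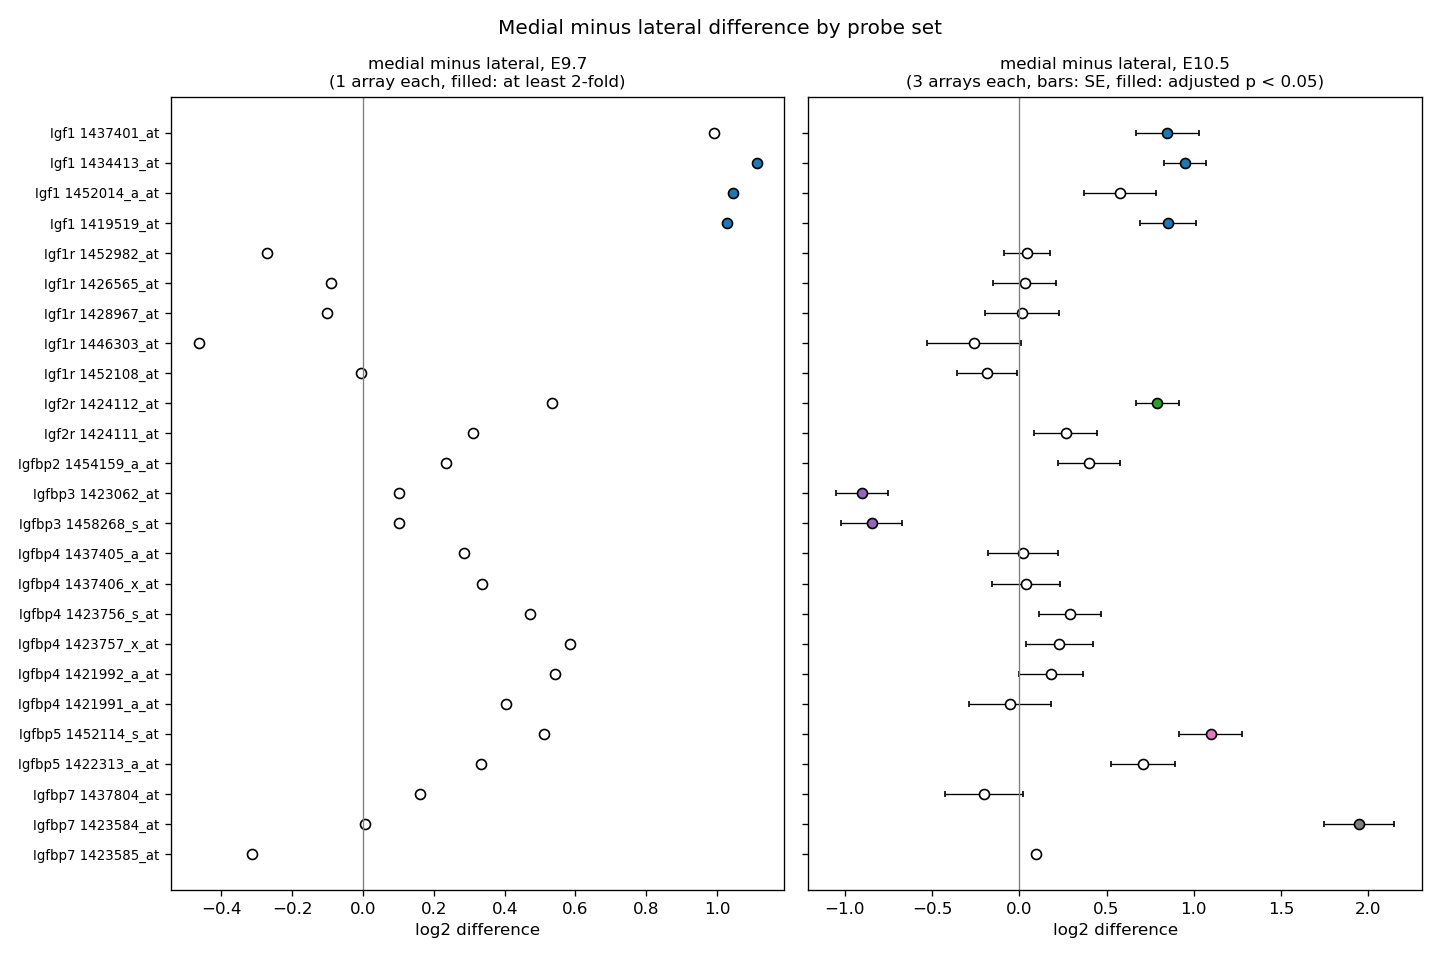
Medial minus lateral log2 difference of the 25 probe sets at E9.7 (left, 1 array each) and E10.5 (right, 3 arrays each, bars are standard errors). Filled points lie at least 2-fold apart at E9.7 or have an adjusted p under 0.05 at E10.5. At E10.5 both Igfbp3 probe sets lie near -0.9, while at E9.7 both lie at 0.10. The point of 1423584_at of Igfbp7 at E10.5 is set against lateral values under the filter level, and so has no settled size.

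In medial tissue, Igf2r and Igfbp3 were higher at E11.5 than at E10.5, and no member was called lower by its brightest probe set. These are 2 of 8 members, where 6.92% of genes passed (828, 4.32% higher and 2.6% lower). The members' median difference was 0.28, against 0.00 over all tested genes. By probe set, 5 were higher and 1 was lower, where 5.09% passed, and the lower one was again 1423584_at of Igfbp7, under the filter level at E11.5. The other 4 comparisons have 1 array on a side and no test, and a gene counts as 2-fold apart there if every array of a group lies at least 1 log2 unit beyond every array of the other. By that rule 0 of 8 members differed between medial and lateral tissue at E9.7 (1.76% of all genes) and 1 of 8, Igfbp3, was higher in medial tissue at E14.5 than at E11.5 (14.6%). By probe set, 3 of 24 were higher and 2 lower at E14.5, where 18.7% of probe sets were 2-fold apart. Of these, 1423584_at of Igfbp7 was under the filter level at E11.5 and 1446303_at of Igf1r at E14.5. Igf1 was the 1 member of 8 higher at E10.5 than at E9.7, in medial tissue (0.977%) and in lateral tissue (1.34%). The medial E10.5 arrays enter 3 of these comparisons, the lateral E10.5 and medial E11.5 arrays 2 each, and both E9.7 arrays 2 each.

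**Figure D2:**
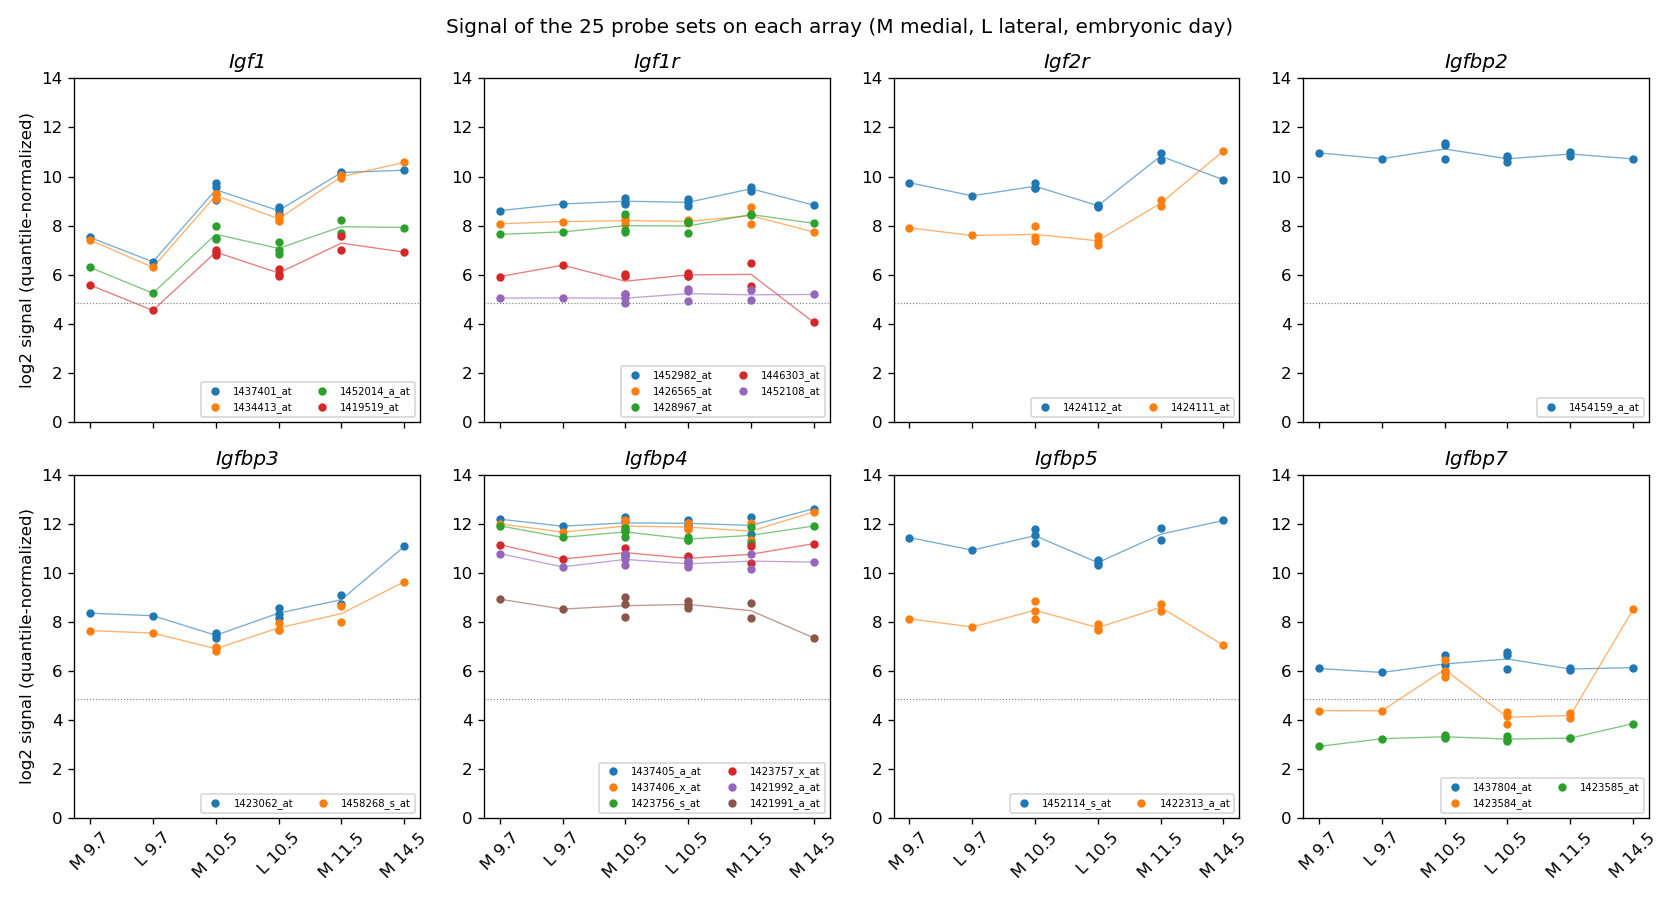
Log2 signal (quantile-normalized) of each probe set on each array, by gene, with medial (M) and lateral (L) tissue along the axis by embryonic day. Points are arrays, lines join group means and the dotted line is the filter level of 4.86. All 4 Igf1 probe sets lie higher at E10.5 than at E9.7 in both tissues, those of Igf2r and Igfbp5 part at E14.5, and those of Igfbp7 part at medial E10.5 and at E14.5.

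Igf2r, Igfbp5 and Igfbp7 each had a probe set whose medial arrays all lay above the lateral arrays at E10.5. The Igf1 probe sets and 1423756_s_at of Igfbp4 did so too. Such a separation held for 10.8% of all tested probe sets. For Igfbp7 that probe set was tested only because its medial E10.5 arrays reached the filter level. The brightest Igfbp7 probe set overlapped between the tissues (-0.20 ± 0.22), so no medial excess is claimed for that gene. The promoters of Igf2r, Igfbp5 and Igfbp7 are shown for that separation and because their listed start is the outer end of the annotated gene. Each is the 250 bases before the start in RefSeq (GRCm38.p6), 5′ to 3′ on the gene's strand, with motif matches on either strand in capitals. The motifs searched were the TATA-box letters TATAAA with the variants TATATA and also TTTAAA, the GC box letters GGGCGG and the E-box CACGTG. Igf2r is on the minus strand at chr17:12769707-12769956, Igfbp5 on the minus strand at chr1:72874866-72875115, and Igfbp7 on the minus strand at chr5:77408046-77408295.
Igf2r: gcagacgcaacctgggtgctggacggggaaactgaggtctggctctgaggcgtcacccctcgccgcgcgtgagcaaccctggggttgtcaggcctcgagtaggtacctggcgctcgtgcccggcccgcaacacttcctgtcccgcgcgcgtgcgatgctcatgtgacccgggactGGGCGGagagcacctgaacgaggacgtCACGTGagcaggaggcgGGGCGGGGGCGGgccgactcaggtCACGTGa
Igfbp5: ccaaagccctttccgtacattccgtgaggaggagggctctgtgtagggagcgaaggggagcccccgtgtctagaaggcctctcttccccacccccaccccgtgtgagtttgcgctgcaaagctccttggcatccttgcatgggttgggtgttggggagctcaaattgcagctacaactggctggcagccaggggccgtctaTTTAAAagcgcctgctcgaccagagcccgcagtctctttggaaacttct
Igfbp7: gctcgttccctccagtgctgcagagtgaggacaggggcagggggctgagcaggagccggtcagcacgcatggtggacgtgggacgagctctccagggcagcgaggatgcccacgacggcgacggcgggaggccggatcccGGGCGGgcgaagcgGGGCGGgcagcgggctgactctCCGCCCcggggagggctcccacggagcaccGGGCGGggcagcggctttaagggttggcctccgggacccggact
The Igf2r window holds 3 matches to GGGCGG and 2 to CACGTG, and none to the AT-rich motifs. Igfbp5 holds 1 match to TTTAAA, which starts 49 bases before the start site, and none to GGGCGG. Igfbp7 holds 4 matches to GGGCGG, 1 of them on the other strand, and none to the other motifs. Of 32851 promoter windows of this length, 32.7% hold GGGCGG, 6.02% hold CACGTG, 12.1% hold TTTAAA, 12.4% hold TATAAA and 5.25% hold TATATA. The motifs do not overlap each other in these windows, and a match describes letters alone.

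Igf1 encodes the ligand and lies on chromosome 10 (87858265 to 87937047, GRCm38.p6). Its brightest probe set, 1437401_at, had a log2 signal of 7.52 in medial and 6.53 in lateral tissue at E9.7. At E10.5 it had 9.06, 9.57 and 9.76 on the medial arrays and 8.62, 8.75 and 8.47 on the lateral arrays. In medial tissue it was 10.13 and 10.20 at E11.5 and 10.26 at E14.5. The level was thus lowest in lateral tissue at E9.7 and highest in medial tissue at E14.5, and the E11.5 and E14.5 values differed by less than the spread within E10.5.

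The medial and lateral arrays of E10.5 did not overlap for Igf1, which held for 12.1% of tested genes in that direction. The difference was 0.85 ± 0.18 (log2 ± SE, n = 3 each, 1.80-fold, limma adjusted p = 0.0275). It was lost from the called genes when medial replicate 2 or 3 or any 1 lateral array was left out, with limma adjusted p of 0.0715 to 0.131, and kept without medial replicate 1 (adjusted p = 0.00279). Over all alternatives the limma adjusted p lay between 7.23e-04 and 0.924. Of its other probe sets, 1434413_at (0.95 ± 0.12, limma adjusted p = 0.00267) and 1419519_at (0.85 ± 0.16, adjusted p = 0.0206) were higher and 1452014_a_at was not called (0.57 ± 0.21, adjusted p = 0.234). At E9.7 the medial minus lateral difference was 0.99 for the brightest probe set and 1.03 to 1.11 for the other 3, which pass 2-fold, where 1.42% of probe sets did. The lateral E9.7 value of 1419519_at, 4.55, was under the filter level, so sizes against it are uncertain.

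From E9.7 to E10.5 all 4 Igf1 probe sets were at least 2-fold higher at the later stage on every array. The difference was 1.94 in medial tissue and 2.09 in lateral tissue for 1437401_at, and 1.34 to 1.81 and 1.52 to 1.98 for the other 3. By probe set the background was 0.88% in medial and 1.26% in lateral tissue. Between E11.5 and E10.5 the medial arrays of 1437401_at again did not overlap, as for 14.8% of tested genes in that direction. The difference of 0.70 ± 0.20 did not pass (limma adjusted p = 0.0737). Without medial E10.5 replicate 3 it passed (0.85 ± 0.19, limma adjusted p = 0.0383, range over alternatives 0.00917 to 0.991). The probe set 1434413_at passed by itself (0.77 ± 0.13, limma adjusted p = 0.0108), and was called in 7 of 12 fits. At E14.5 the differences from E11.5 were small and of both signs (-0.37 to 0.58).

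The other ligand, Igf2, which is paternally expressed, was also higher in medial tissue at E10.5, by 0.80 ± 0.10 (limma adjusted p = 0.00233), with a mean log2 signal of 13.1 in medial and 12.3 in lateral tissue. At E9.7 its medial minus lateral difference was 0.77. Between E11.5 and E10.5 its difference was 0.14 ± 0.12 (limma adjusted p = 0.624).

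Igf1r, which encodes the receptor kinase that IGF1 and IGF2 signal through, is on chromosome 7 (67952257 to 68233668). Its brightest probe set, 1452982_at, ranged from 8.61 to 9.59 over the 11 arrays. At E10.5 it read 8.97, 8.89 and 9.12 in medial and 8.78, 8.97 and 9.10 in lateral tissue. The groups overlapped and the difference was 0.04 ± 0.13 (limma adjusted p = 0.897), and the other 4 probe sets differed by -0.26 to 0.03. At E11.5 it was 9.41 and 9.59 in medial tissue, above all 3 medial E10.5 arrays, but the difference of 0.51 ± 0.14 did not pass (limma adjusted p = 0.0701). With control-probe group in the fit it passed (0.59, limma adjusted p = 0.00741, range over alternatives 0.00741 to 0.922). The dim probe set 1446303_at was 4.06 at E14.5 and 5.55 and 6.48 at E11.5, so its E14.5 value was under the filter level, and the other 4 differed by -0.67 to 0.02.

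Igf2r encodes the receptor that clears IGF2, is maternally expressed in the mouse, and lies on chromosome 17 (12682406 to 12769706). Its brightest probe set, 1424112_at, was at 9.75 in medial and 9.22 in lateral tissue at E9.7. At E10.5 it had 9.73, 9.54 and 9.55 on the medial arrays, against 8.82, 8.77 and 8.86 on the lateral arrays. At E11.5 the medial arrays read 10.69 and 10.98, and the E14.5 array 9.87. The lowest group was lateral E10.5 and the highest medial E11.5, and the medial E9.7 value lay just above the medial E10.5 arrays.

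For Igf2r the medial excess at E10.5 was 0.79 ± 0.12 (n = 3 each, 1.73-fold, limma adjusted p = 0.00466), and it was 0.72 and 0.73 within the control-probe groups that held both tissues. All 6 fits that left out 1 array kept the call (limma adjusted p of 0.0130 to 0.0338). The other probe set, 1424111_at, had a difference of 0.26 ± 0.18 (limma adjusted p = 0.560), with -0.03 and 0.72 within those control-probe groups. Between E11.5 and E10.5 both probe sets rose, 1424112_at by 1.23 ± 0.13 (n = 2 and 3, 2.34-fold, limma adjusted p = 4.87e-04) and 1424111_at by 1.27 ± 0.20 (limma adjusted p = 0.00704). Within control-probe groups the 1424112_at difference was 1.44 and 0.96. At E14.5 the probe sets parted: 1424111_at was at 11.04, against 8.78 and 9.05 at E11.5 (2.13 higher), while 1424112_at was 0.97 lower.

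Igfbp3 encodes the main carrier of IGFs in serum and is on chromosome 11 (7206086 to 7215498). Its brightest probe set, 1423062_at, was at 8.35 in medial and 8.25 in lateral tissue at E9.7. At E10.5 it was 7.33, 7.55 and 7.48 on the medial arrays, against 8.57, 8.17 and 8.32 on the lateral arrays. At E11.5 the medial arrays were 8.74 and 9.08, and at E14.5 the array was 11.07. Medial E10.5 was the lowest of the 6 groups, and both E9.7 values lay within the range of the lateral E10.5 arrays.

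Igfbp3 was the 1 member lower in medial than in lateral tissue at E10.5, by -0.90 ± 0.14 (log2 ± SE, n = 3 each, limma adjusted p = 0.00724), which is 1.87-fold higher in lateral tissue. Its other probe set, 1458268_s_at, was also lower (-0.85 ± 0.17, limma adjusted p = 0.0321), though in 5 of 13 fits only. Within control-probe groups the 1423062_at difference was -1.02 and -0.77. Centring the arrays on their medians ended the call (-0.75, limma adjusted p = 0.147), as did the values as deposited (-1.88, adjusted p = 0.589, the top of a range over alternatives from 0.00135). Between medial E11.5 and E10.5 it rose by 1.45 ± 0.16 (2.73-fold, limma adjusted p = 6.10e-04), with 1.43 ± 0.20 for 1458268_s_at, and by 1.52 and 1.40 within control-probe groups. The E14.5 value was 2.17 above the E11.5 mean (4.49-fold, no test), and that of 1458268_s_at was 1.30 above. Between E10.5 and E9.7 the difference was -0.90 in medial and 0.10 in lateral tissue.

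**Figure D3:**
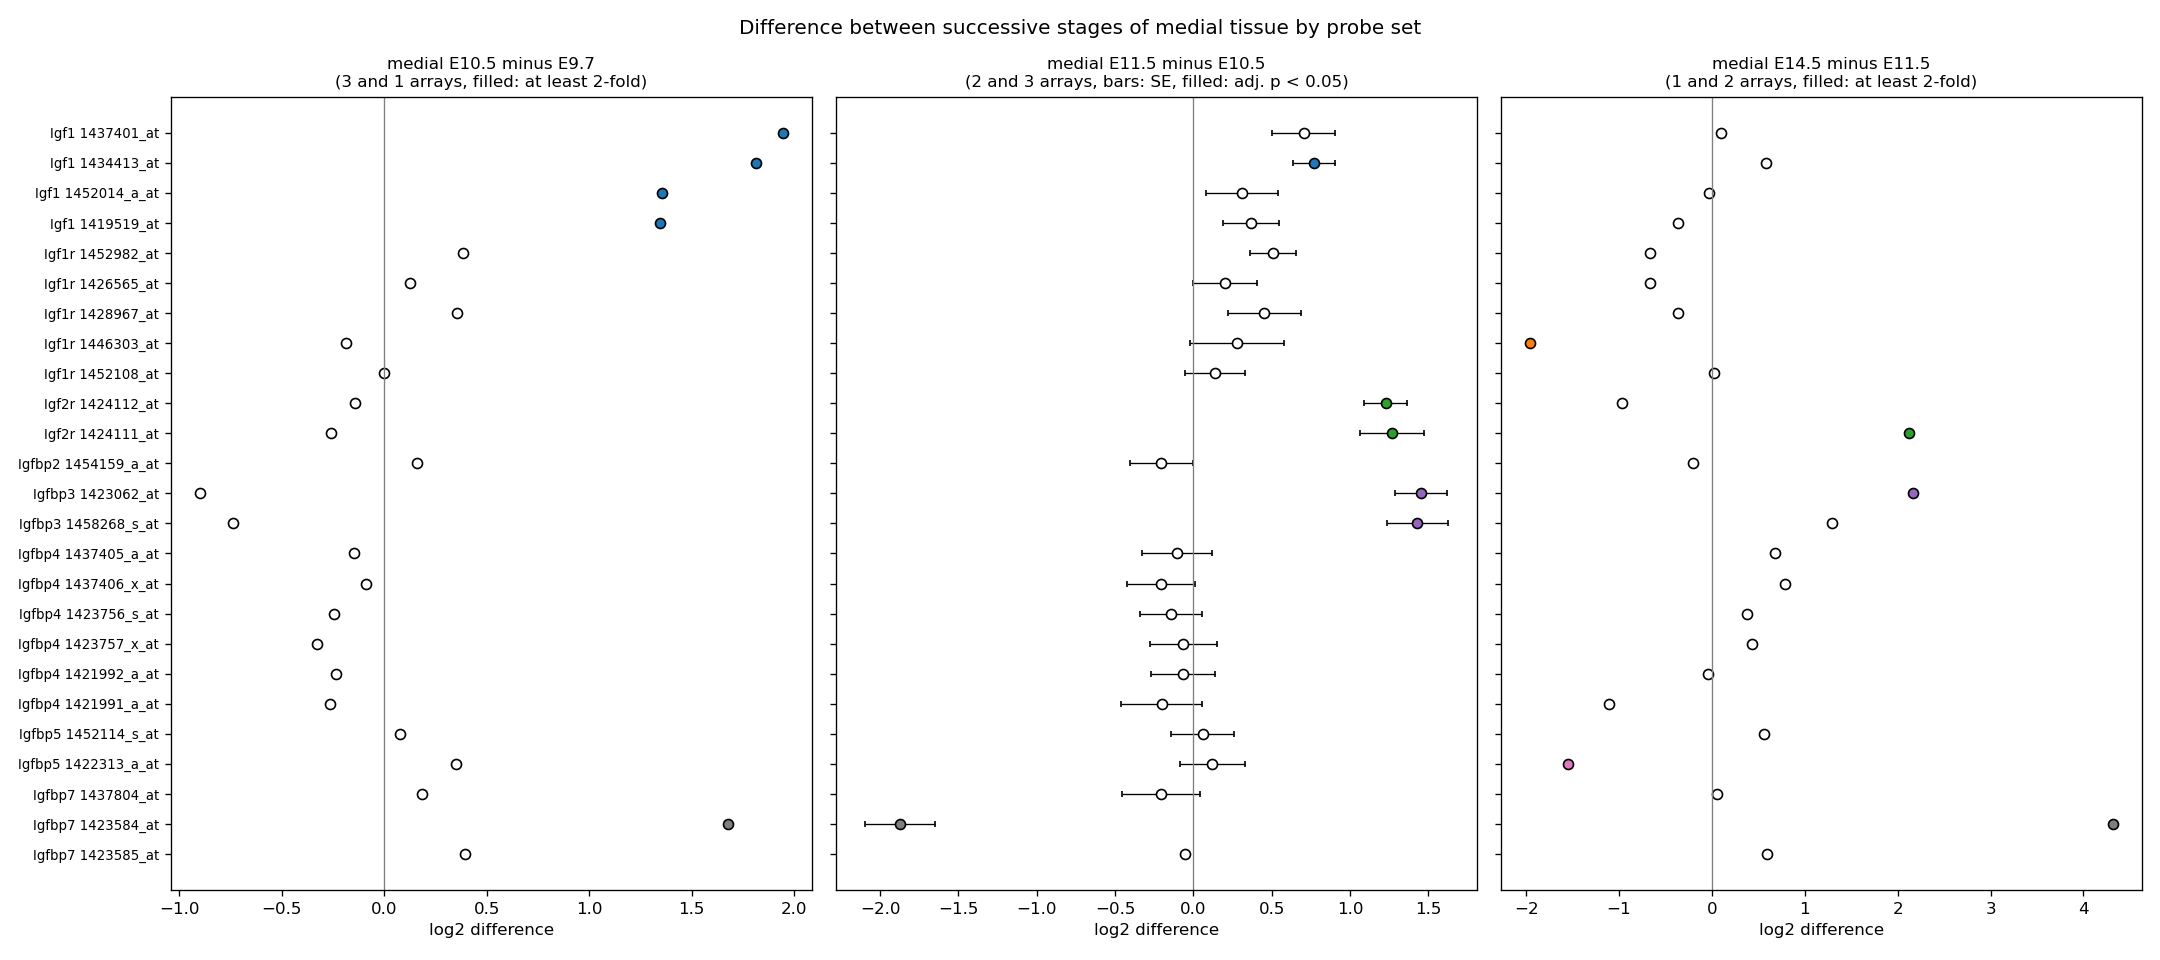
Log2 difference between successive stages of medial tissue for the 25 probe sets, for E10.5 minus E9.7, E11.5 minus E10.5 (bars are standard errors) and E14.5 minus E11.5. Filled points are at least 2-fold apart on every array (outer panels) or have an adjusted p under 0.05 (middle). The Igf1 probe sets lie at 1.34 to 1.94 in the left panel, and Igf2r and Igfbp3 at 1.23 to 1.45 in the middle panel.

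Igfbp5 encodes a binding protein that also attaches to extracellular matrix and lies on chromosome 1 (72858065 to 72874865), next to Igfbp2. Its brightest probe set, 1452114_s_at, had 11.43 in medial and 10.93 in lateral tissue at E9.7. At E10.5 it read 11.21, 11.55 and 11.77 in medial tissue, against 10.52, 10.32 and 10.40 in lateral tissue. In medial tissue it was 11.33 and 11.82 at E11.5 and 12.13 at E14.5. By this probe set all medial arrays of every stage lay above all lateral arrays, and the medial arrays of E9.7, E10.5 and E11.5 overlapped. The share of all probe sets with such a separation was not counted. It did not hold for 1422313_a_at, where the medial E14.5 array, 7.05, lay under the lateral E10.5 arrays (7.67 to 7.93) and the lateral E9.7 array (7.79).

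The medial excess of Igfbp5 at E10.5 was 1.1 ± 0.18 (n = 3 each, 2.14-fold, limma adjusted p = 0.00751), the largest of the 8 by brightest probe set, and it was 1.03 and 1.41 within control-probe groups. All 6 fits that left out 1 array kept it (limma adjusted p of 0.00402 to 0.0446). The second probe set, 1422313_a_at, did not overlap between the tissues, as for 10.8% of probe sets in that direction, and its difference of 0.71 ± 0.19 did not pass (limma adjusted p = 0.0879). At E9.7 the differences were 0.51 and 0.33. Between E11.5 and E10.5 the medial difference was 0.06 ± 0.20 (limma adjusted p = 0.926). At E14.5 the probe sets parted here too, with a difference from E11.5 of 0.56 for 1452114_s_at and -1.55 for 1422313_a_at, which read 7.05, against 8.45 and 8.74.

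Igfbp7 encodes a secreted protein with low affinity for IGFs that is found in vessel basement membrane, and it is on chromosome 5 (77349240 to 77408045). Its 3 probe sets gave different pictures. The brightest, 1437804_at, was between 5.94 and 6.77 on all arrays, with -0.20 ± 0.22 for medial minus lateral tissue at E10.5 (limma adjusted p = 0.711). The dimmest, 1423585_at, was under the filter level on all 11 arrays and was not tested.

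The Igfbp7 probe set 1423584_at was at 4.38 in both medial and lateral tissue at E9.7. At E10.5 it was 5.74, 6.44 and 6.0 on the medial arrays, against 4.33, 4.18 and 3.83 on the lateral arrays. At E11.5 the medial arrays were back at 4.08 and 4.30, and the E14.5 array was at 8.51. Medial E10.5 and medial E14.5 were thus the only groups over the filter level of 4.86, and the other 4 lay in a dim range where sizes of differences are uncertain.

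By this probe set, all 3 medial E10.5 arrays lay above the filter level and all 3 lateral E10.5 arrays and both medial E11.5 arrays lay under it. It entered the tests only through the arrays where it was high, so no p-value is given for it, and its differences have no settled size. It remains in the probe set counts given above. The brightest probe set showed no such pattern, with a medial E11.5 minus E10.5 difference of -0.21 ± 0.25 (limma adjusted p = 0.773).

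Igfbp2 and Igfbp4 encode binding proteins that mostly restrain IGF action, and IGFBP4 is a substrate of pappalysin. Igfbp2, read by 1 probe set on chromosome 1 (72824480 to 72852474), had 10.72, 11.37 and 11.27 in medial tissue at E10.5, against 10.85, 10.58 and 10.74 in lateral tissue. These groups overlapped through medial replicate 1, an array of low deposited signal, and the difference was 0.40 ± 0.18 (limma adjusted p = 0.309). Without that array it was 0.60 ± 0.13 (limma adjusted p = 0.0394, range over alternatives 0.00543 to 0.679). The Igfbp2 level was between 10.58 and 11.37 on all arrays, so stages differed little: E11.5 minus E10.5 was -0.20 ± 0.20 (limma adjusted p = 0.699).

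Igfbp4, on chromosome 11 (99040005 to 99052655), was read by 6 probe sets. Its brightest, 1437405_a_at, was 11.60 to 12.61 on all arrays. At E10.5 it was 11.72, 12.12 and 12.26 in medial tissue and 11.91, 11.97 and 12.16 in lateral tissue, and the difference was 0.02 ± 0.20 (limma adjusted p = 0.971). The other 5 differed by -0.05 to 0.29 and none passed. Between E11.5 and E10.5 the 6 probe sets differed by -0.21 to -0.06, also with no call. At E14.5 they spread from -1.11 for 1421991_a_at to 0.79 for 1437406_x_at.

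The probe sets of a gene agreed to differing degrees over the 11 arrays, given here as Pearson r with no p, since arrays share normalization and groups. The range was 0.94 to 0.99 for the 4 Igf1 probe sets and r was 0.98 for Igfbp3. It was 0.57 for Igf2r, 0.28 for Igfbp5, 0.05 to 0.84 for Igf1r, -0.14 to 0.98 for Igfbp4 and -0.15 to 0.79 for Igfbp7. The range of the difference over the probe sets of a gene, for E14.5 minus E11.5, was 3.10 for Igf2r, 2.11 for Igfbp5, 1.90 for Igfbp4, 1.98 for Igf1r, 0.95 for Igf1 and 0.87 for Igfbp3. For Igfbp7 it was 4.26, of uncertain size, since 1423584_at was under the filter level at E11.5. Over 5784 genes with several probe sets the median of this range was 0.86 at E14.5, while it was 0.16 to 0.31 in the other 5 comparisons. Probe sets lay more than 0.5 on both sides of 0 for 11.1% of these genes at E14.5, Igf2r, Igfbp4 and Igfbp5 among them. The higher 3' minus 5' actin difference of the E14.5 array stands beside all its values, and its part in them was not tested.

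Markers of several cell types moved with these comparisons. At E10.5, 5 of 9 epithelial and 3 of 8 endothelial markers were higher in medial tissue, as was 1 of 6 pericyte markers (Rgs5). Of all tested genes, 2.82% were higher and 1.8% lower there. Of 3 tested cartilage and bone markers, 2 were lower in medial tissue, and of 11 muscle markers 1 was higher and 1 lower. The summed linear signal of the epithelial list was 2650.1 to 2937.4 on medial arrays and 1484.3 to 1610.1 on lateral arrays, and that of the endothelial list 1282.2 to 1351.4 and 892.85 to 947.6. For pericytes it was 1541 to 2484.9 in medial and 1483 to 1695.3 in lateral tissue, where Rgs5, Kcnj8 and Abcc9 were under the filter level. Kcnj8 was under it in medial tissue too. The cartilage and bone sum was 816.38 to 979.8 in medial and 1779.4 to 1986.8 in lateral tissue, where Acan and Ibsp were under the filter level in both. None of the 7 mesenchymal markers was called at E10.5, and their sum was 11657 to 13280 in medial and 11963 to 12845 in lateral tissue. Their part in the member differences was not tested, and in pieces of tissue fewer cells of a type and less RNA per cell cannot be told apart.

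Between medial E11.5 and E10.5, 10 of 11 tested muscle markers rose, as did the 4 tested of 8 macrophage markers. Of 9 epithelial markers 7 fell and 1 rose, and 2 of 8 endothelial markers fell. Of all tested genes, 4.32% were higher and 2.6% lower. The muscle markers Ttn and Myh3 were under the filter level on all E10.5 arrays of both tissues, so they had to be higher at E11.5 to be tested. Of 7 mesenchymal markers 2 were higher and 3 lower, and of 6 pericyte markers 2 were higher and 1 lower. The muscle sum was 6153.6 to 8192.9 at E11.5 and 353.1 to 432.39 at E10.5. On the medial E10.5 arrays 6 of 12 muscle markers were under the filter level: Myod1 and Myog, which define the lineage, Myf5, Pax7, Ttn and Myh3. In lateral tissue at E10.5 those under it were Pax7, Ttn, Tnnc1 and Myh3. The macrophage sum was 479.38 to 525.13 at E11.5 and 252.25 to 285.73 at E10.5. The epithelial sum was 1497.6 to 1606.4 at E11.5 and 2650.1 to 2937.4 at E10.5. At E14.5 the muscle sum was 41437 and the epithelial sum 8423.8, while the red cell sum was 5680.1, against 22764 to 26050 at E11.5. Igf2r and Igfbp3 rose alongside these lists at E11.5, and the lists' part in that was not tested.

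Of 38 other genes of the IGF pathway, 35 were on the arrays, 29 were tested at E10.5 and 4 of them were called, with a median difference of 0.03, where 4.63% of all tested genes were called. Igf2 was higher in medial tissue, as was Ghr, the growth hormone receptor (1.35 ± 0.12, 2.55-fold, limma adjusted p = 3.15e-04). Htra1, a secreted serine protease that cuts IGFBP5 (-0.53 ± 0.11, limma adjusted p = 0.0288), and Pik3r2, a regulatory subunit of PI 3-kinase (-0.46 ± 0.11, limma adjusted p = 0.0445), were lower. The Htra1 call remained in 2 of the 6 fits that left out 1 array, those without medial replicate 1 or lateral replicate 1, and its limma adjusted p lay between 0.0355 and 0.158 over the 6. The Pik3r2 call remained in 0 of 6 (limma adjusted p of 0.0971 to 0.180), so leaving out any array of either tissue ended it. The calls of Igf2 and Ghr remained in 6 of 6.

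Between medial E11.5 and E10.5, 5 of 29 pathway genes were called, all higher, with a median of 0.14, where 6.92% of all tested genes were called and 4.32% were higher. Irs1, which docks signalling proteins to the activated receptor, rose by 1.37 ± 0.16 (2.58-fold, limma adjusted p = 0.00101) and Ghr by 1.0 ± 0.13 (2.01-fold, limma adjusted p = 0.00151). Stc1, a secreted glycoprotein (0.72 ± 0.14, limma adjusted p = 0.0145), and Pik3r1, a PI 3-kinase subunit (0.69 ± 0.15, adjusted p = 0.0247), were also higher. The Stc1 mean at medial E10.5, 4.88, lay near the filter level, so the size of its difference is uncertain. Centring the arrays, the mean of probe sets, array weights and fitting the compared groups alone each ended the calls of Stc1 and Pik3r1. For Stc1 the difference was 0.30 with the mean of probe sets (limma adjusted p = 0.337). The last of the 5, Pappa, the protease that cuts IGFBP4, had a mean of 5.52 at E11.5 and of 4.57 at E10.5, under the filter level. No E10.5 array of either tissue reached that level for Pappa. It thus entered the test only through the medial E11.5 arrays and had to be higher there. Its call is no evidence of a rise, and the size of its difference is uncertain. Leaving out medial E11.5 replicate 2, which left 1 array in that group, ended the calls of Pappa, Stc1 (0.67) and Pik3r1 (0.73). Leaving out medial E10.5 replicate 2 ended those of Pappa and Pik3r1 (0.71, limma adjusted p = 0.0644). Pik3r1 was also lost without medial E11.5 replicate 1 (0.66, limma adjusted p = 0.117) or medial E10.5 replicate 3 (0.60, adjusted p = 0.0648).

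**Figure D4:**
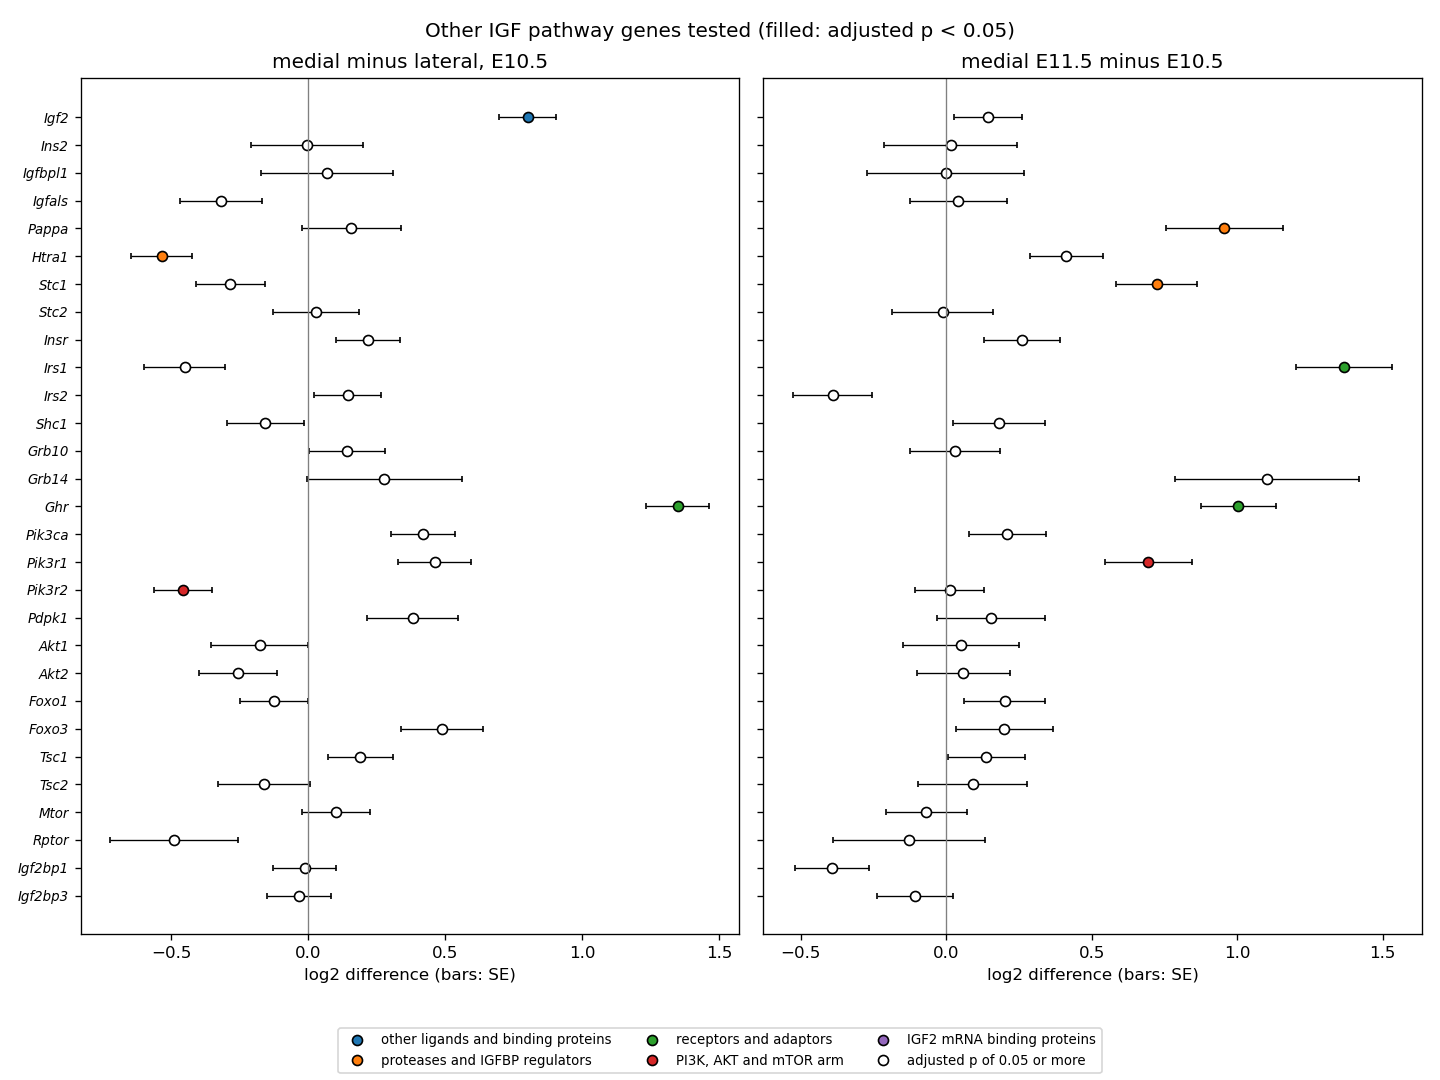
Log2 difference, with standard error, of the 29 other IGF pathway genes tested, for medial minus lateral tissue at E10.5 (left) and medial E11.5 minus medial E10.5 (right). Filled points have an adjusted p under 0.05, coloured by list. Ghr lies at 1.35 on the left and 1.0 on the right, and Irs1 at 1.37 on the right.

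In the comparisons without a test, 1 of 28 pathway genes, the binding protein gene Igfbp1, was 2-fold higher in medial tissue at E9.7 (1.76% of all genes were 2-fold apart). It had 5.19 in medial and 3.87 in lateral tissue, the lateral value under the filter level, so the size is uncertain. At E14.5, 6 of 31 were 2-fold apart from E11.5, where 14.6% of all genes were. The protease gene Htra1 (3.20) and Stc1 (1.25) were higher, and the kinase gene Pdpk1 (-1.47) and Igf2bp1, which encodes a binder of IGF2 mRNA (-1.74), were lower. The other 2 were over the filter level at E14.5 alone: the protease gene Pappa2 had 7.18 at E14.5 and a mean of 3.89 at E11.5, and the binding protein gene Igfbp6 had 6.01 and 4.29. Between E10.5 and E9.7, 0 of 29 in medial and 0 of 28 in lateral tissue were 2-fold apart.

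The genes most like each member over the 11 arrays were found by Pearson r among tested genes, as a description with no p. For Igf1 they were 6330403K07Rik (0.98), Dnah1 (0.98) and Trp53inp1 (0.98), for Igf2r Nav2 (0.96), Elovl7 (0.95) and Pias1 (0.93), and for Igf1r Vps13d (0.91), Zfp287 (0.91) and Ndufv1 (0.90). For Igfbp3 they were Zfp608 (0.98), Gamt (0.97) and Stc1 (0.96), and for Igfbp5 Bmp5 (0.97), Tshz2 (0.96) and Phactr2 (0.96). For Igfbp4 they were Rtn4, Plcd3 and Slc36a1 (0.97 each), for Igfbp2 Pltp (0.87), Alx4 (0.86) and Adamts6 (0.85), and for the brightest Igfbp7 probe set Nkx2-9 (0.97), Gpr26 (0.95) and 4930563E22Rik (0.95). Without the E14.5 array the r of Gamt and Stc1 with Igfbp3 was 0.90 and 0.86.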

How the data were processed

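RNA of 11 mandibular arch samples was hybridised to Affymetrix arrays with 45101 probe sets, from 3 ug of total RNA each. Per the submitters' processing notes, the deposited log2 signals come from Affymetrix Expression Console 1.1, and the algorithm is not given in the sources used here. The log base was inferred from the deposited range, 0.0887 to 14.5. Deposited values were quantile-normalized over all arrays. Probe sets were named from the platform annotation, 34754 of them through Entrez ID to RefSeq. A gene was read by its probe set of highest mean and tested where 2 of 8 arrays of the replicated groups reached the 50th percentile.

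Differences were tested with limma 3.58.1 in R 4.3.3, with 6 group means and 5 residual degrees of freedom, and p-values were adjusted by Benjamini-Hochberg over all genes or all probe sets tested. Same-numbered replicates were not treated as pairs. The alternatives were other scalings, filters, probe set summaries, variance models, a replicate block, control-probe groups and leaving out arrays. Named were all members, pathway genes called in a comparison, Igf2, and per member the 3 most correlated genes. The members and lists were chosen with earlier results of these data known. Array groups were read from control probe sets, not from labels.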

Additional observations from a re-analysis of the deposited data

Results flagged for a closer look

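Medial minus lateral differences of Igfbp3 were negative at E10.5, with all 3 arrays of each tissue on the same side, and small and positive at E9.7. The E9.7 difference of 1423062_at was smaller than its E10.5 standard error of 0.14, so its sign is not settled. For 1423062_at the difference was -0.90 at E10.5 and 0.10 at E9.7, and for 1458268_s_at it was -0.85 and 0.10. The same arrays gave opposite signs for E10.5 minus E9.7 by tissue, -0.74 in medial and 0.21 in lateral tissue for 1458268_s_at. Igfbp4 by 1421992_a_at had -0.24 in medial and 0.13 in lateral tissue for E10.5 minus E9.7. Igfbp7 by 1423584_at had 1.68 in medial and -0.26 in lateral tissue, where all lateral arrays and the medial E9.7 array were under the filter level, so these sizes are uncertain. With 1 array per tissue at E9.7, none of these differences between groups was tested. They all rest on the same pair of E9.7 arrays, and the share of all genes with such a change was not counted.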

How the results depend on the processing

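Of the alternatives, the values as deposited, where the arrays of low signal are far below the rest, changed most: they moved the median difference of all genes at E10.5 to -1.03 and at E14.5 to 1.75. Genes called fell to 2 between the E10.5 tissues and 1 for medial E11.5 against E10.5, with 0 members and 0 pathway genes in each. The count was 57 for medial E10.5 against E9.7, with 0 members, and 1 pathway gene was called for lateral E10.5 against E9.7. Signs turned at E10.5 for Igf1 (-0.12), Igf1r (-0.89), Igf2r (-0.15), Igfbp2 (-0.54), Igfbp4 (-0.90) and Igf2 (-0.15). They turned at E11.5 for Igf1r (-0.19), Igfbp5 (-0.59), Igf2 (-0.36) and Pik3r1 (-0.0045). Of the genes called in comparisons without a test, Pdpk1 turned at E14.5 (0.26). Of members not called there, Igf1r (1.07), Igf2r (0.75) and Igfbp2 (1.51) also turned at E14.5. For medial E10.5 against E9.7, Igf1r (-0.71), Igfbp2 (-0.97), Igfbp5 (-1.01), Igfbp7 (-0.80) and the ligand gene Igf2 (-0.86) turned. For lateral E10.5 against E9.7, the members Igf1r and Igfbp4 turned. With arrays centred on their median, 358 genes and 2 pathway genes were called at E10.5, and 455 and 2 at E11.5, and the median of all genes moved to 0.11 at E10.5, 0.39 at E14.5, -0.25 for medial and -0.33 for lateral E10.5 against E9.7. The causes of the further changes were not tested. No filter gave 2 pathway genes at E10.5, and the stricter filter 3 at E11.5 and 0 at E9.7. The mean of probe sets turned Igf1r (-0.070) and Igfbp7 (0.61) at E10.5, gave 3 pathway genes at E11.5 and 2 members at E14.5. It also called Igfbp7 lower at E11.5 (-0.71), and at E14.5 it turned Igfbp5 (-0.49) and Igf2r. With every probe set tested, 4 members were called at E11.5, 5 at E14.5 with 3304 genes and 12 pathway genes by any probe set, and 2 in medial E10.5 against E9.7. At E9.7 these 2 settings, centring and the values as deposited each called 1 member, Igf1, in place of 0. Trend and robust options gave 4 members at E11.5. Array weights gave 2833 genes and 13 pathway genes at E10.5, with Igf1r at -0.051, and 3 pathway genes at E11.5. Fitting the compared groups alone gave 482 genes and 2 pathway genes at E11.5. Control-probe group as an effect gave 1254 genes and 7 pathway genes at E10.5, and 2182 genes, 4 members and 8 pathway genes at E11.5, with Igfbp4 at 0.020. Without the arrays of low signal Igfbp4 was at 0.066 at E11.5.

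Leaving out 1 array gave 308 to 528 genes, 3 to 5 members and 2 to 3 pathway genes at E10.5, and 597 to 801, 2 to 3 and 2 to 5 at E11.5. The lowest counts at E10.5 were 308 without the third lateral array and 314 without the second. It gave 2192 to 2664 genes and 2 members at E14.5, with Igf2r (-1.11) added without medial E11.5 replicate 1 and Igfbp4 (1.01) without replicate 2. It gave 134 to 202 genes for medial (202 without medial E10.5 replicate 1) and 174 to 270 for lateral E10.5 against E9.7 (270 without lateral replicate 1). Igf1r ranged from -0.040 to 0.12 and Igfbp4 from -0.093 to 0.18 at E10.5, and Igfbp4 from -0.43 to 0.22 and Igfbp5 from -0.19 to 0.31 at E11.5. With the replicate block, 4 members were called at E10.5 with 779 genes, and 3 at E11.5 with 868: Igf1r passed (0.58, limma adjusted p = 0.0342). The block changed no other member's call. Deviations of same-numbered arrays correlated at 0.13, -0.29 and 0.48 between the E10.5 tissues, and at 0.59 and 0.39 between medial E11.5 and E10.5, with 2 pairs only. Differently numbered arrays of the E10.5 tissues correlated at -0.56 to 0.50. The value of 0.50 was for medial replicate 2 and lateral replicate 1, which share a control-probe group. The numbers were therefore not taken as pairs. Low signal limits the Igfbp7 probe set 1423584_at, on which the 0.61 and -0.71 for the mean of probe sets rest, and Pappa, Pappa2, Igfbp1 and Igfbp6. It also limits Stc1 at medial E10.5.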
